A study of Mus musculus with 2 samples.

Results

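The GIMAP genes encode GTPases of the immunity-associated protein family, which lymphocytes express and which lie side by side in a single chromosomal cluster. Their levels were compared between effector Treg cells, the activated form of regulatory T cells, from Nrn1-/- mice and from Nrn1+/- mice, with 1 RNA sequencing library per genotype. The 8 genes Gimap1, Gimap3, Gimap4, Gimap5, Gimap6, Gimap7, Gimap8 and Gimap9 were taken by gene symbol from files of 46511 gene rows, and each had a single row. They were chosen by family membership with their FPKM in the same 2 libraries already known, so the difference between the genotypes is given below as a description and no test stands behind it.

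The cells of both genotypes were CD4+ and CD25+ with the surface markers of effector cells, high CD44 among them, and were sorted as positive for a green fluorescent protein from mice on a Foxp3DTRgfp background, a strain on C57BL/6 in which regulatory T cells are marked. Nrn1-/- mice carry the null allele on both copies of Nrn1, which encodes the surface-anchored protein neuritin, and Nrn1+/- mice on a single copy. The comparison library is titled wild type but its genotype label reads Nrn1+/-, so null cells were set against heterozygous cells. The labels state neither age, sex nor the number of mice behind each library, nor the part of Nrn1 that the null allele lacks. Levels are in FPKM, which divides a gene's fragments by transcript length and by the depth of the library. With 1 library a genotype there is no spread between animals to set a difference against. The intervals given are 95% intervals for counting error alone, from fragment numbers estimated from the spacing of low values. A fragment on 1 kb was worth 0.0256 FPKM in the library of Nrn1-/- cells and 0.0196 FPKM in that of Nrn1+/- cells. Because no molecular identifiers mark PCR copies, these intervals are narrower than the true uncertainty.

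GIMAP proteins share a GTP-binding domain of the AIG1 type, related in fold to the septins and to dynamin-like GTPases, and several are anchored to membranes inside the cell. The family is best known for keeping resting lymphocytes alive. In mice and rats, loss of Gimap5 empties the periphery of T cells, and in mice loss of Gimap1 removes mature T and B cells. Gimap3 is the closest relative of Gimap5 and acts alongside it in mouse T cells, while the human counterpart is a pseudogene. Gimap4 is known to speed the death of T cells that have received a death signal, and Gimap6 binds an ATG8-type autophagy protein. Human GIMAP7 stimulates GTP hydrolysis by another family member, and Gimap8 is a larger protein with several GTPase domains.

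The 8 genes span 123.6 kb of chromosome 6 (GRCm38, 48647234 to 48770851), with 6 on the plus strand and 2, Gimap6 and Gimap3, on the minus strand. In order along the chromosome they are Gimap8 (ENSMUSG00000064262.6, 48647234 to 48660875), Gimap9 (ENSMUSG00000051124.6, 48676129 to 48679114), Gimap4 (ENSMUSG00000054435.15, 48684549 to 48692060) and Gimap6 (ENSMUSG00000047867.10, 48701582 to 48708225). Gimap7 (ENSMUSG00000043931.10, 48718621 to 48724636), Gimap1 (ENSMUSG00000090019.4, 48739054 to 48743795), Gimap5 (ENSMUSG00000043505.8, 48746197 to 48754210) and Gimap3 (ENSMUSG00000039264.9, 48764464 to 48770851) follow. All are annotated as protein-coding. The longest coding sequence has 291 codons in Gimap9, 293 in Gimap7, 300 in Gimap1, 301 in Gimap3, 305 in Gimap6, 308 in Gimap5 and 328 in Gimap4, against 688 in Gimap8. Gimap3 and Gimap5 are the nearest pair, with 86.5% of the coding bases of the longer gene identical. The next pair, Gimap7 and Gimap9, reached 64.5%.

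The sequence just before the transcription start is shown for 4 of the genes, chosen after their values were seen. Its part in their levels was not tested. Gimap3 had the largest difference between the libraries, Gimap5 is its closest relative in coding sequence, Gimap9 had the smallest difference, and Gimap4 was the highest of the family in the Nrn1-/- library. Each is the 250 bases before the RefSeq start on GRCm38.p6, written 5′ to 3′ on the strand of the gene. The windows are chr6:48770852-48771101 (minus strand) for Gimap3, chr6:48745947-48746196 (plus) for Gimap5, chr6:48675885-48676134 (plus) for Gimap9 and chr6:48684328-48684577 (plus) for Gimap4. Capitals mark matches on either strand to the motifs described after them.
Gimap3: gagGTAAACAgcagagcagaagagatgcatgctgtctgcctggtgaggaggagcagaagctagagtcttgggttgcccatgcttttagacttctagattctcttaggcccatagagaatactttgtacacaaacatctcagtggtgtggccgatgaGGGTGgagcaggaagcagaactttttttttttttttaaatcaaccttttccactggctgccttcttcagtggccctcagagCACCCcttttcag
Gimap5: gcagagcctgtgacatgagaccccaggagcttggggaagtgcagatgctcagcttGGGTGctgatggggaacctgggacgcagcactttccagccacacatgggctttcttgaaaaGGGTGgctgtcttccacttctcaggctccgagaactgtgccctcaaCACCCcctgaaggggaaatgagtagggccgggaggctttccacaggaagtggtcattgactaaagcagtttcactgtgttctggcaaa
Gimap9: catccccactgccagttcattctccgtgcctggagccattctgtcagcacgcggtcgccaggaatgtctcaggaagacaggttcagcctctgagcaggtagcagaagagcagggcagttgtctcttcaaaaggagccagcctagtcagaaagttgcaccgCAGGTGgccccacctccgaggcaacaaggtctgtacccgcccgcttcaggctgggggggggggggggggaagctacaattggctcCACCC
Gimap4: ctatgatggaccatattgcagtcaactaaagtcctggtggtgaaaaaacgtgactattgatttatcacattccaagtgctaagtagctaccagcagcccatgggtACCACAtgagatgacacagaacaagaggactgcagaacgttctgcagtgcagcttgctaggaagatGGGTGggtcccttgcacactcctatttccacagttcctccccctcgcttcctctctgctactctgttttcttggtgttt

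The letters searched were CACCC for the KLF and SP family, TGTGGT for RUNX factors, TGTTTAC for forkhead factors of the FOXO type, CCGGAA for ETS factors, CTTTGA for TCF and LEF, and CACCTG for E proteins and ZEB factors. Both strands were read, no motif contains another, and all 8 genes had an upstream window in RefSeq. Gimap8 had a second window, so the 8 genes had 9 windows. A gene was counted when any of its windows matched, while the shares set beside the counts are per window. CACCC stood before 5 of the 8 genes (Gimap3, Gimap4, Gimap5, Gimap8 and Gimap9), against 52.0% of all 32851 upstream windows. TGTGGT stood before Gimap1, Gimap4 and Gimap7, which is 3 of 8, against 14% of windows. TGTTTAC was found before Gimap3 (3.17% of windows) and CACCTG before Gimap9 (17.2%). CCGGAA (12.0%) and CTTTGA (13.8%) were in none of the 8 genes' windows, and Gimap6 had no match to any of these motifs. Such matches describe letters in a 250-base window and say nothing of binding. Only the exact letters were searched, so other forms of a site, for ETS factors among others, were not counted.

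All 8 GIMAP genes were at lower FPKM in the Nrn1-/- library, by 1.06-fold for Gimap9 to 1.53-fold for Gimap3. Their levels summed to 1273 FPKM in Nrn1-/- cells and 1694 FPKM in Nrn1+/- cells, 1.33-fold lower. With a pseudocount of 1 FPKM, the median log2 ratio of Nrn1-/- over Nrn1+/- was -0.37 over the 8 genes and 0.02 over all 12344 genes whose mean reached 1 FPKM. Every GIMAP gene passed that filter. Being lower at all held for 8 of 8 GIMAP genes and for 47.7% of all genes tested. At least 20% lower on the same scale were 4 of the 8, Gimap3, Gimap4, Gimap6 and Gimap8, against 16.8% of genes tested. At least 1.5-fold lower was 1 of the 8, Gimap3, against 5.27% of genes tested. Among the 1449 genes whose mean lay within the range of the family, 68.6 to 352 FPKM, the median log2 ratio was 0.18, and 30.9% were lower. At that level, a range set after the values were seen, 11.3% of genes were at least 20% lower and 3.93% at least 1.5-fold lower. Because the family was picked with this contrast known, these shares are context and nothing is read from them.

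**Figure D1:**
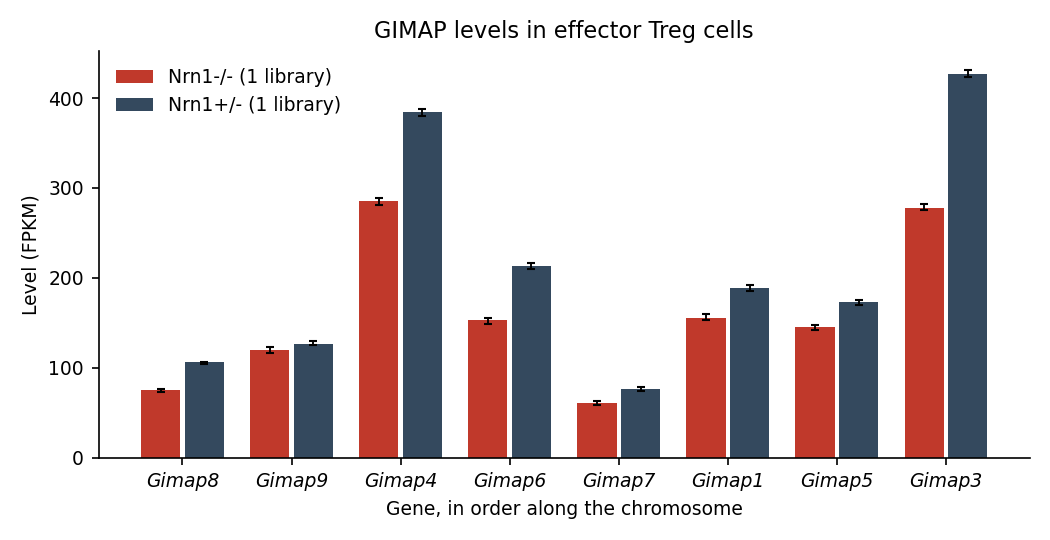
Level of each GIMAP gene in FPKM, in chromosomal order, with the Nrn1-/- library (red) left of the Nrn1+/- library (dark blue). Bars are single libraries and whiskers 95% counting intervals. The red bar is the lower of each pair, most in Gimap3 (278 against 427 FPKM) and least in Gimap9 (120 against 127 FPKM).

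**Figure D2:**
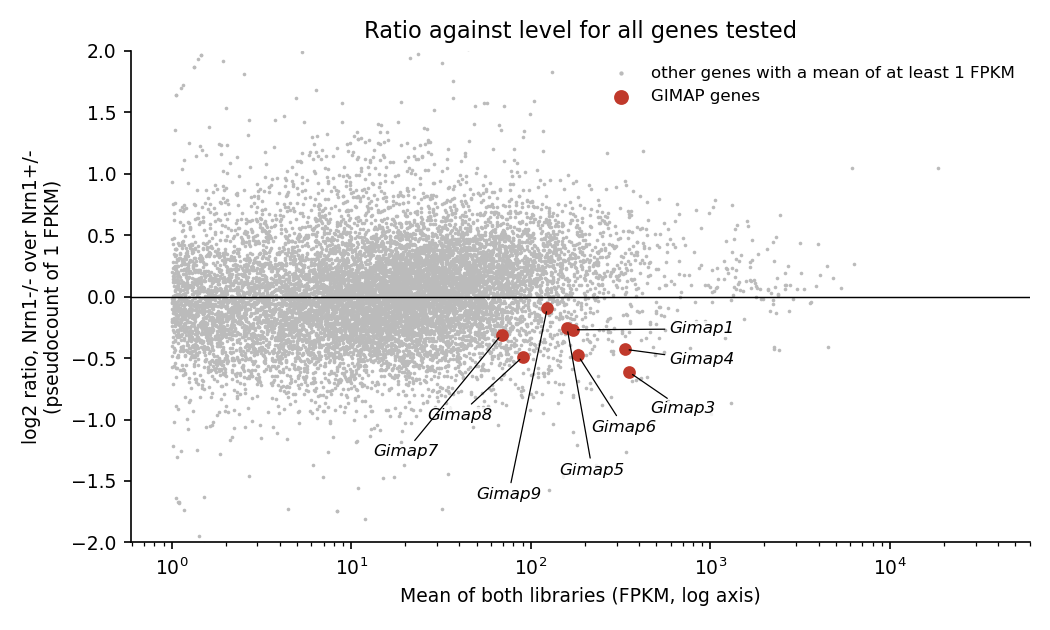
Log2 ratio of Nrn1-/- over Nrn1+/- against the mean FPKM of both libraries on a log axis, for genes whose mean reached 1 FPKM. Red points are the 8 GIMAP genes, which lie between -0.61 and -0.09, and grey points the other genes. The 137 genes with a log2 ratio beyond 2 in size fall outside the axis.

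Among the genes tied to lymphocyte survival, Gimap3 stood at 278 FPKM in Nrn1-/- cells (counting interval 275 to 282) and 427 FPKM in Nrn1+/- cells (423 to 431). That is a log2 ratio of -0.61 and an FPKM ratio of 0.652, with a counting interval of 0.642 to 0.663. It was the family's highest gene in the Nrn1+/- library and second to Gimap4 in the Nrn1-/- library. Gimap5, its close relative, stood at 145 FPKM in Nrn1-/- cells (142 to 148) and 173 FPKM in Nrn1+/- cells (170 to 176), a log2 ratio of -0.25 and an FPKM ratio of 0.838 (0.817 to 0.859). Gimap1, which mature lymphocytes of mice need, had 156 FPKM in Nrn1-/- cells (153 to 160) and 189 FPKM in Nrn1+/- cells (185 to 192), a log2 ratio of -0.27 and a ratio of 0.828 (0.805 to 0.852). These intervals are narrow because fragments per gene were many (8077 or more in each library), and they say nothing of the spread between mice.

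Gimap4, the gene linked to faster T cell death, stood at 285 FPKM in Nrn1-/- cells (281 to 289) and 384 FPKM in Nrn1+/- cells (380 to 388), a log2 ratio of -0.43. Its FPKM ratio was 0.742 with a counting interval of 0.728 to 0.756. Gimap6, the autophagy-linked member, had 153 FPKM in Nrn1-/- cells (149 to 156) and 213 FPKM in Nrn1+/- cells (210 to 217). The ratio of 0.716 (0.697 to 0.736) gives a log2 ratio of -0.48.

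The members whose roles are less settled in mouse had the lowest FPKM of the family in both libraries, while their ratios ran from 0.710 to 0.939. Gimap8, the large member, was at 74.9 FPKM in Nrn1-/- cells (73.3 to 76.5) and 106 FPKM in Nrn1+/- cells (104 to 107), an FPKM ratio of 0.710 (0.692 to 0.729) and a log2 ratio of -0.49. For Gimap7 the levels were 61.2 FPKM in Nrn1-/- cells (58.9 to 63.6) and 76.0 FPKM in Nrn1+/- cells (73.8 to 78.4), which gives 0.804 (0.766 to 0.845) and -0.31. Gimap9 differed least, with 120 FPKM in Nrn1-/- cells (117 to 123) and 127 FPKM in Nrn1+/- cells (125 to 130). Its ratio of 0.939 (0.907 to 0.972) corresponds to a log2 ratio of -0.09. How that gap compares with the spread between mice is unknown.

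FPKM is scaled to transcript length, so levels can be ordered across genes. In the Nrn1-/- library the order was Gimap4, Gimap3, Gimap1, Gimap6, Gimap5, Gimap9, Gimap8 and Gimap7. Within it, Gimap4 and Gimap3 (285 and 278 FPKM) had overlapping counting intervals, as did Gimap1 and Gimap6 (156 and 153 FPKM). In the Nrn1+/- library the order was Gimap3, Gimap4, Gimap6, Gimap1, Gimap5, Gimap9, Gimap8 and Gimap7, and no neighbours overlapped. The last 4 places were the same in each library. Among the 10695 protein-coding genes that passed the same filter, Gimap3 ranked 318 in Nrn1-/- cells and 167 in Nrn1+/- cells. Gimap7, the lowest member, ranked 1861 and 1308 in those libraries, so the whole family was in the upper part of the expressed genes.

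Ratios between members inside a library do not depend on how the libraries were scaled to each other. Gimap3 stood at 1.92 times Gimap5 in the Nrn1-/- library (1.87 to 1.97) and 2.47 times Gimap5 in the Nrn1+/- library (2.42 to 2.51). Against Gimap9 it was 2.33 times as high in Nrn1-/- cells (2.26 to 2.40) and 3.35 times as high in Nrn1+/- cells (3.27 to 3.43). Gimap3 to Gimap4 was 0.977 in Nrn1-/- cells (0.958 to 0.997) and 1.11 in Nrn1+/- cells (1.10 to 1.13). Gimap3 made up 21.9% of the family's summed FPKM in Nrn1-/- cells and 25.2% in Nrn1+/- cells, while Gimap9 made up 9.40% and 7.52%.

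Some members kept nearly the same ratio to each other in the libraries, among them Gimap4, Gimap6 and Gimap8, and likewise Gimap1, Gimap5 and Gimap7. Gimap6 stood at 2.04 times Gimap8 in Nrn1-/- cells and 2.02 times in Nrn1+/- cells. Gimap1 stood at 1.08 times Gimap5 in Nrn1-/- cells and 1.09 times in Nrn1+/- cells. These sets of genes were noticed after the values were seen, and how often other genes pair as closely was not tested.

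**Figure D3:**
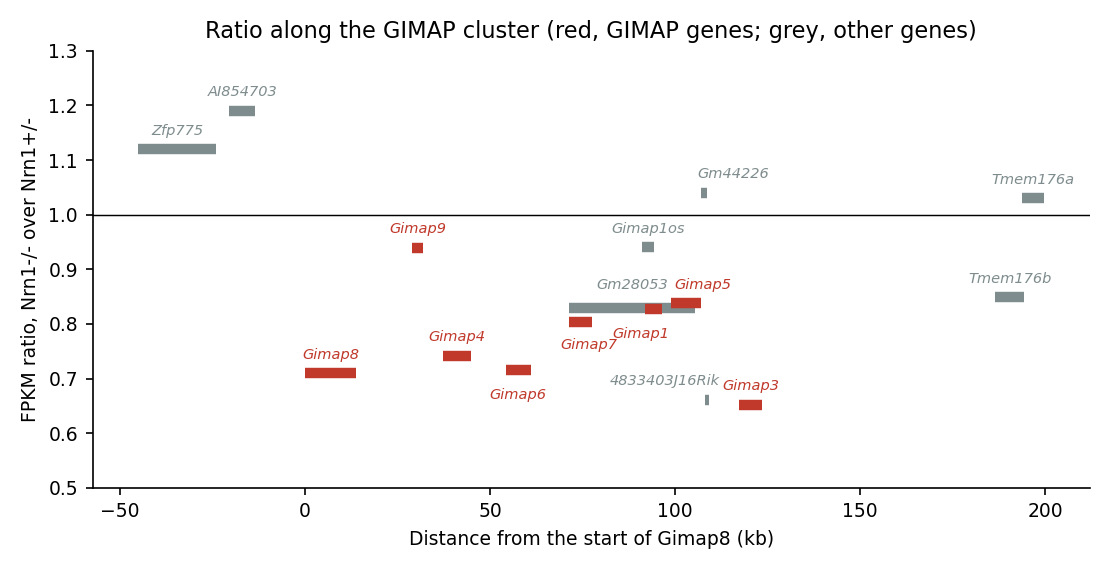
FPKM ratio of Nrn1-/- over Nrn1+/- along the GIMAP cluster, against distance in kb from the start of Gimap8. Each horizontal bar is a gene drawn over its annotated extent, red for GIMAP genes and grey for others. Gimap8, Gimap4 and Gimap6 sit at 0.710 to 0.742, Gimap7, Gimap1 and Gimap5 at 0.804 to 0.838, and the ends of the range are Gimap3 (0.652) and Gimap9 (0.939).

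Position along the chromosome did not order the ratios. Gimap9 (0.939) lies between Gimap8 (0.710) and Gimap4 (0.742), and Gimap3 (0.652) lies next to Gimap5 (0.838). Gimap7, Gimap1 and Gimap5 do neighbour each other. The deposited files give these 3 genes a single joint interval with Gimap1os and Gm28053, 5 genes in all. Gm28053 is annotated from Gimap7 to Gimap5 (48718607 to 48752644, plus strand) and shares 50-base windows with all 3. It was at 18.2 FPKM in Nrn1-/- cells and 22.0 FPKM in Nrn1+/- cells, a ratio of 0.829. Gimap1os, an RNA on the strand opposite Gimap1, was at 6.62 FPKM in Nrn1-/- cells and 7.05 FPKM in Nrn1+/- cells.

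Shared sequence limits how well these genes can be told apart. Of the 50-base windows in annotated Gimap1 transcripts, 32.4% also occur on the opposite strand in Gimap1os and 4.8% in Gm28053. The sources used here do not say whether strand was used in counting, and without it reads of Gimap1 and Gimap1os cannot be told apart there. Gimap3 shared 7.5% of its 50-base windows with Gimap5, and Gimap5 shared 4.5% with Gimap3. With 100-base windows these shares were 1.7% and 1.0%. Gimap4, Gimap8 and Gimap9 shared none of their 50-base windows with any other annotated gene.

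Other genes measured in and around the cluster were at lower levels. A value of 0 need not mean that a gene was silent, since all 37 mitochondrial rows of the files are also listed at 0 in both libraries. Between Gimap5 and Gimap3, the long non-coding RNA gene 4833403J16Rik stood at 8.61 FPKM in Nrn1-/- cells and 13.0 FPKM in Nrn1+/- cells, a ratio of 0.661. Gm44226, which overlaps it on the other strand, stood at 5.69 FPKM in Nrn1-/- cells and 5.49 FPKM in Nrn1+/- cells. The pseudogene Gm44262, between Gimap8 and Gimap9, was listed at 0 in both. On the Gimap3 side, Tmem176b, a membrane protein gene, had 20.6 FPKM in Nrn1-/- cells and 24.3 FPKM in Nrn1+/- cells, and its neighbour Tmem176a had 18.3 and 17.7 FPKM in those cells. Aoc1 reached 0.0452 FPKM in Nrn1-/- cells and was listed at 0 in Nrn1+/- cells, and 1600015I10Rik was listed at 0 in both. On the Gimap8 side, AI854703 (1.01 FPKM in Nrn1-/- cells and 0.849 in Nrn1+/- cells) and the zinc finger gene Zfp775 (2.66 and 2.38 FPKM) were higher in Nrn1-/- cells by at most 1.19 times. Of the 4 nearest protein-coding genes on that side, Gm45021 was listed at 0 in both libraries and Gm44965 had 0.211 FPKM in the Nrn1+/- library with practically 0 in the Nrn1-/- library.

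The size of the GIMAP differences depended on scaling. Every scaling tried moved the ratios further down, so none of them could have reversed a direction. A scaling that raises all ratios, which could reverse Gimap9 at -0.09, was not among them. Before rescaling, the Nrn1-/- values added up to 790935 FPKM over all rows, against 645876 for Nrn1+/-. Protein-coding rows alone gave 647545 for Nrn1-/- against 593035 for Nrn1+/-, which lie closer together. Rows that are not protein-coding therefore add to the shift seen when all rows are rescaled. With each library rescaled to a sum of 1000000 over all rows, all genes tested shifted to a median log2 ratio of -0.25 and the GIMAP median to -0.66. At least 1.5-fold lower there were 5 members, against 17.7% of genes tested. Over protein-coding rows alone, the same rescaling put all genes at -0.10 and the GIMAP median at -0.50. At least 1.5-fold lower were then 3 members, against 10.2% of genes tested. Relative to the median of all genes tested, the GIMAP median was -0.39 as deposited, -0.41 and -0.40 under these rescalings and -0.39 with upper-quartile scaling. The balance of all genes past 1.5-fold went with the scaling too. As deposited 651 genes were lower and 926 higher, and over all rows rescaled 2179 were lower and 408 higher. With protein-coding rows rescaled these counts were 1254 and 659.

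**Figure D4:**
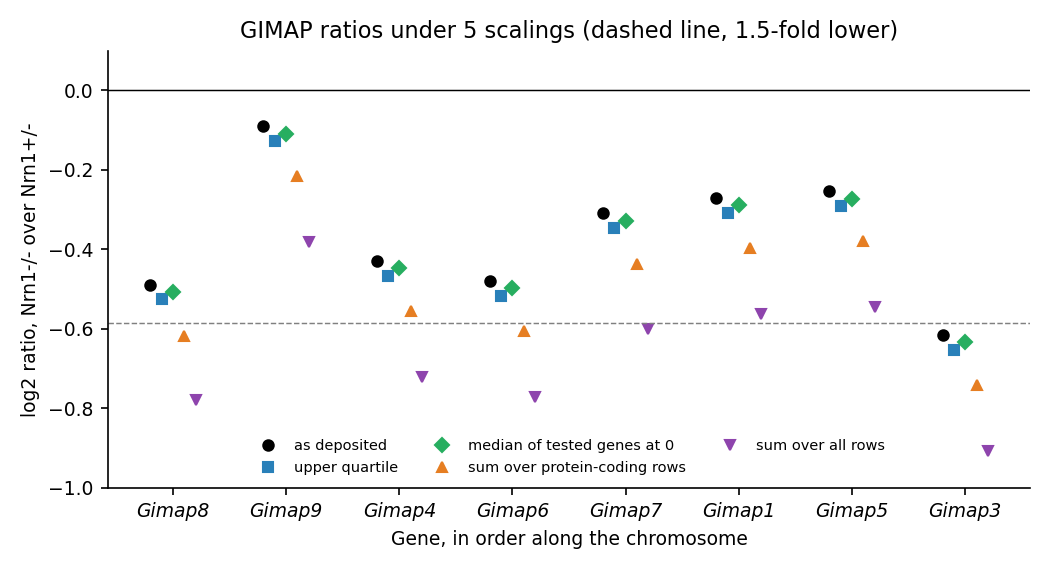
Log2 ratio of Nrn1-/- over Nrn1+/- for each GIMAP gene in chromosomal order under 5 scalings, with the dashed line at 1.5-fold lower. All points lie below 0, from -0.91 for Gimap3 with the sum over all rows to -0.09 for Gimap9 as deposited.

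The labels and the sort were checked in the same values. Nrn1 was at 4.62 FPKM in Nrn1-/- cells and 66.5 FPKM in Nrn1+/- cells. Among genes of the sort, Foxp3, the defining transcription factor of regulatory T cells, had 195 FPKM in Nrn1-/- cells and 257 FPKM in Nrn1+/- cells, Il2ra (CD25) had 564 and 601 FPKM, and Cd4 had 155 and 161 FPKM. The 10 Treg markers were lower in Nrn1-/- cells, where 47.7% of genes tested were lower. Their median log2 ratio was -0.37, the same median as the GIMAP genes. No Treg marker was 1.5-fold lower as deposited, with the pseudocount, against 5.27% of genes tested. With all rows rescaled 7 were (17.7% of genes tested), with protein-coding rows rescaled 3 (10.2%) and under upper-quartile scaling 2 (6.14%). Farthest from equal were Lrrc32 (116 FPKM in Nrn1-/- cells and 173 in Nrn1+/- cells) and Nrp1 (17.6 and 26.5 FPKM). Of 10 general T cell markers 7 were lower and 3 higher (median -0.19), led by Cd2 (465 FPKM in Nrn1-/- cells and 635 in Nrn1+/- cells) and Cd3g (186 and 250 FPKM). That split was 10 lower and 0 higher with all rows rescaled, where the median log2 ratio of all genes tested was -0.25. In bulk RNA of this kind, fewer cells of a type and less RNA per cell cannot be told apart.

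GIMAP genes are also expressed by other lymphocytes and by endothelium, so markers of cells outside the sort were summed. Endothelial markers came to 32.8 FPKM in Nrn1-/- cells and 39.1 FPKM in Nrn1+/- cells. Of these, Pecam1, which T cells express as well, gave 24.6 and 34.6 FPKM, and Egfl7 gave 8.04 and 4.4 FPKM. Cdh5, the endothelial cadherin, was at 0.0199 FPKM in Nrn1-/- cells and 0.00505 FPKM in Nrn1+/- cells, and Cldn5 was listed at 0 in both. B cell markers summed to 9.41 FPKM in Nrn1-/- cells and 6.72 FPKM in Nrn1+/- cells, with Cd79b the highest at 5.14 and 4.85 FPKM. Markers of CD8 T and NK cells summed to 9.02 FPKM in Nrn1-/- cells and 10 FPKM in Nrn1+/- cells, and went both ways. Of these, Cd8b1 gave 3.45 and 4.65 FPKM, Ncr1 0.810 and 1.45 FPKM, Eomes 3.43 and 2.93 FPKM and Cd8a 0.484 and 0.276 FPKM. Myeloid markers came to 7.34 and 8.56 FPKM, most of it from Cd68 (5.56 and 7.09 FPKM), with S100a8 and S100a9 listed at 0 in both libraries. Erythroid and platelet markers came to 1.73 FPKM in Nrn1-/- cells and 2.98 FPKM in Nrn1+/- cells, most of it Itga2b (1.18 and 2.34 FPKM). How much GIMAP RNA cells outside the sort would bring was not tested, and marker sums do not give it.

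Genes of cell division lay on the other side from the GIMAP genes and by more. All 20 on the list were higher in Nrn1-/- cells, 19 of them at least 1.5-fold (7.50% of genes tested were), with a median log2 ratio of 1.17. The largest were Ccnb1, the mitotic cyclin B1 (56.2 FPKM in Nrn1-/- cells and 17.7 in Nrn1+/- cells), and Cdc20, which switches on the ubiquitin ligase of anaphase (85.6 and 28.1 FPKM). Genes of resting T cells lay on the same side as the GIMAP genes, with 14 of 16 lower and a median of -0.39, where 47.7% of genes tested were lower. At least 1.5-fold lower were 3 of the 16 as deposited, against 5.27% of genes tested. With all rows rescaled 10 were, against 17.7% of genes tested, and with protein-coding rows rescaled 6, against 10.2%. Klf2, a transcription factor of quiescence, had 47.4 FPKM in Nrn1-/- cells and 75.7 FPKM in Nrn1+/- cells, the antiproliferative gene Btg1 had 71.4 and 110.0 FPKM, and the IL-7 receptor gene Il7r had 13.2 and 20.4 FPKM. The part of the cell-division and resting genes in the GIMAP difference was not tested.

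Other GTPase families differed from each other. The interferon-inducible GTPases, defence proteins that act on membranes around intracellular pathogens, were lower in 15 of 15 tested members with a median of -0.46, where 47.7% of genes tested were lower. At least 1.5-fold lower were 6, against 5.27% of genes tested, and 12 with all rows rescaled, against 17.7%. The 6 were Gbp2, Gbp3, Gbp5, Gbp7, Gbp8 and Gbp9, all guanylate-binding proteins. Gbp2 was the highest of the list at 344 FPKM in Nrn1-/- cells and 542 FPKM in Nrn1+/- cells, and Gbp9 lay farthest from equal at 28.6 and 49.7 FPKM. Septins, the cytoskeletal GTPases to which the GIMAP fold is related, ran at a median of 0.09, with all 8 tested members higher as deposited (52.3% of genes tested were). That direction did not hold across scalings, with 6 higher and 2 lower under upper-quartile scaling and 1 higher and 7 lower with all rows rescaled. Sept10 (1.61 FPKM in Nrn1-/- cells and 1.0 in Nrn1+/- cells) and Sept11 (53.5 and 44.5 FPKM) had the largest septin ratios.

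Genes of processes in which GIMAP proteins take part were divided. Of 15 tested genes of the BCL2 family, which sets the threshold for mitochondrial cell death, 8 were higher and 7 lower. Of all genes tested, 47.7% were lower. At least 1.5-fold lower was 1 of the 15, against 5.27% of genes tested. That gene was Bcl2, a survival factor, at 25.5 FPKM in Nrn1-/- cells and 43.9 FPKM in Nrn1+/- cells. On the log2 scale with the pseudocount the death-promoting Bbc3 followed, at 24.4 and 35.7 FPKM. Without the pseudocount Bmf, also death-promoting, lay farther from equal than Bbc3, at 1.01 and 1.63 FPKM. The 8 higher genes included Bcl2a1d (33.7 FPKM in Nrn1-/- cells and 23.6 in Nrn1+/- cells), Bcl2l1 (140 and 105 FPKM) and Bak1 (68.0 and 52.4 FPKM). None was 1.5-fold higher, against 7.50% of genes tested. Of 12 genes of the ATG8 family and its lipidation, the machinery behind the partner of Gimap6, 9 were lower with a median of -0.14, where 47.7% of genes tested were lower. None was 1.5-fold lower as deposited, and 5 were with all rows rescaled, against 17.7% of genes tested. Gabarapl2, the ATG8 protein that Gimap6 is known to bind, had 47.8 FPKM in Nrn1-/- cells and 53.4 FPKM in Nrn1+/- cells. By the log2 ratio with the pseudocount, the farthest from equal were the autophagy receptor gene Sqstm1 (87.7 FPKM in Nrn1-/- cells and 119 in Nrn1+/- cells) and Atg12 (12.6 and 17.0 FPKM). Without the pseudocount Map1lc3a lay farther, at 3.47 and 4.85 FPKM. GSK3 and beta-catenin genes were included because Gimap5 is known to restrain GSK3 beta in mouse T cells. Of these 9 genes 5 were lower with a median of -0.06, where 47.7% of genes tested were lower. None was 1.5-fold lower as deposited, and 2 were with all rows rescaled, against 17.7% of genes tested. Axin2 (2.93 FPKM in Nrn1-/- cells and 4.07 in Nrn1+/- cells) and the kinase gene Gsk3b (18.1 and 22.7 FPKM) lay farthest from equal in that list. With all rows rescaled, 12 of the 15 BCL2 family genes, 12 of the 12 ATG8 genes and 8 of the 9 GSK3 genes were lower. At that scaling all genes tested had a median log2 ratio of -0.25, so most of them were lower too.

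**Figure D5:**
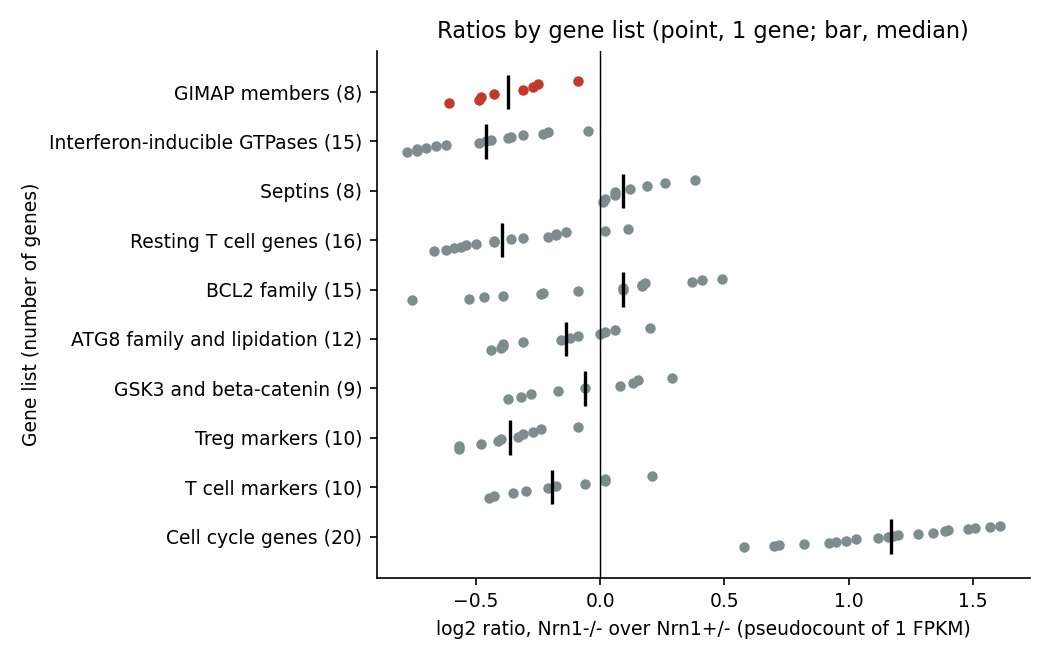
Log2 ratio of Nrn1-/- over Nrn1+/- with a pseudocount of 1 FPKM, by gene list. Each point is a gene whose mean reached 1 FPKM, the vertical bar is the median of the list, and the GIMAP genes are red. GIMAP genes (median -0.37) lie on the side of Treg markers (-0.37), resting T cell genes (-0.39) and interferon-inducible GTPases (-0.46), and cell cycle genes lie at 1.17.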

How the data were processed

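Poly(A) RNA of sorted effector Treg cells was made into NEBNext Ultra libraries per the labels' protocols, with 1 Nrn1-/- and 1 Nrn1+/- library grouped by the genotype label. The authors deposited FPKM per gene. The file headers name no unit, so FPKM was inferred from the values and from the submitters' processing notes, which list FastQC, TopHat, Cuffdiff and Cuffnorm, with the builds mm10 and GRCm38. Scaling across the libraries is not stated, and it can shift all ratios together.

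Rows sharing a symbol (82 symbols) were summed. Log2 ratios set Nrn1-/- over Nrn1+/- after adding 1 FPKM to each value, a pseudocount that understates differences of low genes. FPKM ratios and folds quoted as such carry no pseudocount, and thresholds of 20% lower and 1.5-fold apply to the log2 ratio. Comparisons took the 12344 genes whose mean reached 1 FPKM. With 1 library per genotype no p-value was computed. The ratio calculation and the 1.5-fold call were run on simulated counts with 2-fold changes and counting error alone. That simulation held no spread between animals and no scaling difference, so it does not bear on the differences reported here.

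Fragments were estimated from genes with a single transcript of at least 1000 bases in GENCODE M21. Of 1207 such low values for Nrn1-/- and 1200 for Nrn1+/-, 97.3% and 97.1% fell within 0.1 of whole multiples of 1 fragment, where chance gives 20%. The fragment worth 1.31 times more FPKM in the Nrn1-/- library means fewer fragments there provided that no scaling across libraries was applied. Member fragments were taken from the transcript with the longest coding sequence, ranging from 2626 (Gimap7) to 21469 (Gimap3) in the Nrn1-/- library and from 4206 to 42670 in the Nrn1+/- library. FPKM intervals are exact Poisson and ratio intervals exact binomial (Clopper-Pearson).

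The genes, the 14 other lists and the motifs were chosen with earlier results of these data known. A single gene of the resting T cell list is not reported here and was left out of its counts. Named genes were the 8 members, other genes inside the cluster, the 4 nearest protein-coding genes on each side, 4 checks and the 2 genes farthest from equal per list. Ranks within a list use the log2 ratio with the pseudocount. Gabarapl2, Gbp2, Map1lc3a, Bmf, Bcl2a1d, Bcl2l1, Bak1 and some markers were added after their values were seen. No genes were ranked by likeness to the members, since 2 libraries give a single ratio per gene. Identity was computed by global alignment of GENCODE M21 coding sequences (Biopython 1.88), since no protein sequences were used here. Upstream windows came from RefSeq on GRCm38.p6, without the 50 bases after each start. The scalings, pseudocounts, filters and thresholds tried are given in the closing section.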

Additional observations from a re-analysis of the deposited data

How the results depend on the processing

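All 8 members were lower in the Nrn1-/- library under each of the 6 alternative pseudocounts and scalings. Of 48 member ratios recomputed in this way, 29 moved by less than their counting interval, 19 by more, and 0 changed sign. A change of sign could not have arisen, since a pseudocount keeps the sign and each scaling tried moved the ratios down. Filters on low values and the choice of row could not change a member's ratio, since each has a single row that passes every filter. The count of members at least 1.5-fold lower, 1 as reported, was 5 with all rows rescaled to a sum of 1000000, 3 with protein-coding rows rescaled, 4 at a threshold of 20% lower and 0 at 2-fold. The GIMAP median log2 ratio, -0.37 as reported, was -0.66 with all rows rescaled and -0.50 with protein-coding rows rescaled. Genes at least 1.5-fold lower numbered 651 as reported, 2179 and 1254 under these rescalings, 272 with a pseudocount of 5 FPKM, 432 with a filter of 5 FPKM, 2078 at 20% lower and 137 at 2-fold. With more depth the counting intervals would narrow, but the spread between mice would still be unmeasured. No paired analysis was possible because each genotype has 1 library, and for the same reason no library could be left out.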
